A study of Mus musculus with 479 samples.

Results

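The genes described here are 33 chaperones, folding enzymes and degradation factors of the endoplasmic reticulum (ER), with the sensors and transcription factors that regulate them, out of 24475 genes in each deposited table. They were chosen by name, with earlier results of these data known. All 33 were found in both tables, with Ero1lb listed under the symbol Ero1b. Mice heterozygous (Het) for Dchs1 or for Fat4 were set against wild-type (WT) mice of the same line. Polyadenylated RNA of their hearts, kidneys, livers and lungs was sequenced. Dchs1 and Fat4 are large protocadherins that bind each other between neighbouring cells. Both lines were made with VelociGene technology, and every animal carried a C57BL/6NTac background. Each line, tissue and genotype had 30 libraries, except for Dchs1 Het liver with 29, which gives 479 libraries. The sources used here do not give age, sex, litter or the exact targeted allele. Nor do the labels tie libraries to separate mice, and p-values therefore reflect only how libraries vary, which may be technical.

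Proteins that enter the secretory pathway are threaded into the ER, where Hsp70 and Hsp90 chaperones, lectin chaperones and disulfide isomerases fold them. Chains that fail to fold are pulled back into the cytosol and destroyed, a route called ER-associated degradation (ERAD). When folding lags, the sensors IRE1 (encoded by Ern1), ATF6 and PERK start the unfolded protein response: IRE1 splices Xbp1 mRNA, ATF6 is cut to release a transcription factor, and PERK favours translation of ATF4. XBP1 and ATF6 are known to raise chaperone and ERAD genes, and ATF4 to raise amino acid genes and Ddit3. Hepatocytes and plasma cells, which export much protein, are textbook cells with a large ER.

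Library totals ran from 10720364 to 32282525 reads with a median of 18978025. The targeted gene stood at 42.2% to 46.6% of its WT mean in the 4 Dchs1 Het tissues and at 47.8% to 51.7% in the 4 Fat4 Het tissues. Marker lists were high in their own tissue, and no libraries of 1 group shared identical counts. In 7 of the 8 comparisons the library numbers in the labels fell into more than 1 stretch of consecutive numbers, the only stand-in for a batch, and each count of called members is therefore followed by that of the longest stretch. By median correlation with the others, 5 libraries of the Dchs1 lung comparison stood apart (3 Het and 2 WT), as did 1 Het of Fat4 heart and 3 of Fat4 liver (1 Het and 2 WT).

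Where these genes carry known control elements, the letters can be read from their promoters. The ER stress response element (ERSE), known to be bound by NF-Y and ATF6, was searched as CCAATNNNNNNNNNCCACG on both strands between 250 bases before and 50 bases after each RefSeq start (GRCm38.p6). It was present in 10 of the 29 members with a promoter sequence (34.5%), against 37 of 27025 promoters of all genes (0.137%), as a description of the letters. The second form, ERSE-II, spelled ATTGGNCCACG, was present in Dnajb11 and Herpud1 (6.9% against 0.0444%). The XBP1 element TGACGTGG was present in Txndc5 (3.45% against 0.714%), and TTGCATCA, an ATF4-type element, in Herpud1 (3.45% against 1.03%). The plain CCAAT box, which is part of both ERSE forms, was present in 82.8% of the members and 41.1% of all promoters. The 6 promoters below belong to genes that the results turn on and run 5′ to 3′ along the gene's own strand, with matches in capitals.
Hspa5, chr2:34771840-34772139, plus strand, ERSE 65 bases before the start: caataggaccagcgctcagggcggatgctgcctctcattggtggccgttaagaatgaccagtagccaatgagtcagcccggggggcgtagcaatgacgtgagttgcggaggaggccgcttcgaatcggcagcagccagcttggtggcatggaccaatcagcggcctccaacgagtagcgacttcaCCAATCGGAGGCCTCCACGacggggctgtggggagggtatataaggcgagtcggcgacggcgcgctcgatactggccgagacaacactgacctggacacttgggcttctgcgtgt
Hsp90b1, chr10:86705395-86705694, minus strand, ERSE 212 and 107 bases before the start: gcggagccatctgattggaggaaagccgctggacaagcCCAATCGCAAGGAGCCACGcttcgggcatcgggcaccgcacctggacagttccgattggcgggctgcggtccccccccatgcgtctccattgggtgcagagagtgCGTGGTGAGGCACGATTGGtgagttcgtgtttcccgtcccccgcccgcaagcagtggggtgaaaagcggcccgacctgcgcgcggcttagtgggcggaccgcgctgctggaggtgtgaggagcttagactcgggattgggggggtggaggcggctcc
Creld2, chr15:88819396-88819695, plus strand, ERSE 126 bases before the start: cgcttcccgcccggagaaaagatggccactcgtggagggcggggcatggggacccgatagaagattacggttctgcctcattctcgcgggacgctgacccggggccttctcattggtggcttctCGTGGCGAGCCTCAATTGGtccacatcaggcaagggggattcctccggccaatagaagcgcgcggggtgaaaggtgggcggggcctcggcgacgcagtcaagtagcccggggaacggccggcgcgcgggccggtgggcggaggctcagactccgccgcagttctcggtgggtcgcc
Ero1b, chr13:12565633-12565932, plus strand, ERSE 201 bases before the start: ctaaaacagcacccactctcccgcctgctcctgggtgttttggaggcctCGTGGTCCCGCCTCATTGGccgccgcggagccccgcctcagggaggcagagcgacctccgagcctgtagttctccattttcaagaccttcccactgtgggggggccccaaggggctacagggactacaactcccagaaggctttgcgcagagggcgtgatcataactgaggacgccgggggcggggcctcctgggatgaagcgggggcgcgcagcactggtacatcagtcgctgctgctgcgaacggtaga
Derl3, chr10:75893148-75893447, plus strand, ERSE 156 bases before the start: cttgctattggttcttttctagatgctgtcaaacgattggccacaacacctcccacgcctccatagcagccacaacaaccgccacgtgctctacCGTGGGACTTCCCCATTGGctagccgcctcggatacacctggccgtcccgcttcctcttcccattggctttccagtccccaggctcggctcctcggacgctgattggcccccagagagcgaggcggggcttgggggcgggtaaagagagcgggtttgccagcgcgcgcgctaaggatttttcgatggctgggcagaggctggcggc
Herpud1, chr8:94386179-94386478, plus strand, ERSE-II 52 and the ATF4-type element 112 bases before the start: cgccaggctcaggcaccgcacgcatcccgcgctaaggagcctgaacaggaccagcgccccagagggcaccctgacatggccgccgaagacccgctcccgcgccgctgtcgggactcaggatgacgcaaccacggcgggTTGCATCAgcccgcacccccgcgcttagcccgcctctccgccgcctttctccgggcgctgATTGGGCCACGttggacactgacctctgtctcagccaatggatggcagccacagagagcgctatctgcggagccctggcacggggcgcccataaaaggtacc

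The levels in WT tissue set the scale. Summed over the 33 members and averaged over 30 libraries, TPM (a level scaled to transcript length and library total) came to 1093 in heart, 2022 in kidney, 4164 in liver and 4237 in lung of Dchs1 WT mice, and to 1060, 2234, 4351 and 4068 in the same tissues of Fat4 WT mice. Liver and lung held about the same sum, and heart the lowest in both lines. Hspa5, which encodes the ER Hsp70 BiP, averaged 145 ± 28.2 TPM in heart, 124 ± 18.7 in kidney, 462 ± 90.3 in liver and 341 ± 42.6 in lung of Dchs1 WT mice (SD, n = 30 each), and the heart and kidney levels lay within 1 SD of each other. Manf, a secreted ER stress-induced protein, averaged 9.87 ± 5.69 TPM in heart, 41.1 ± 11.4 in kidney, 108 ± 28.9 in liver and 136 ± 10.9 in lung.

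The steepest gradients were those of Derl3, an ERAD channel component known from plasma cells, whose highest tissue stood 35.2-fold and 24-fold above its lowest in the Dchs1 and Fat4 lines, and of the oxidase gene Ero1b, at 17.9-fold and 22.5-fold. Derl3 averaged 4.12 ± 8.1 TPM in liver and 0.117 ± 0.0866 TPM in heart of Dchs1 WT mice. Its SD in that liver exceeded its mean, and its heart level lay near the floor, so its ratios are loose. The flattest gradients were those of Canx (calnexin) at 1.96-fold and 2.01-fold, and of the ERAD factor Herpud1 at 2.0-fold and 2.02-fold. Most members had their lowest level in heart. Ddit3, which encodes the stress transcription factor CHOP, went another way, with 6.47 ± 1.56 TPM in liver of Dchs1 WT mice against 32.9 ± 4.7 in lung. Atf6 was lowest in kidney, at 8.2 ± 1.67 TPM, and its lung, heart and liver levels lay close together at 22.8 ± 7.12, 21.8 ± 3.55 and 17.1 ± 3.02 TPM.

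**Figure D1:**
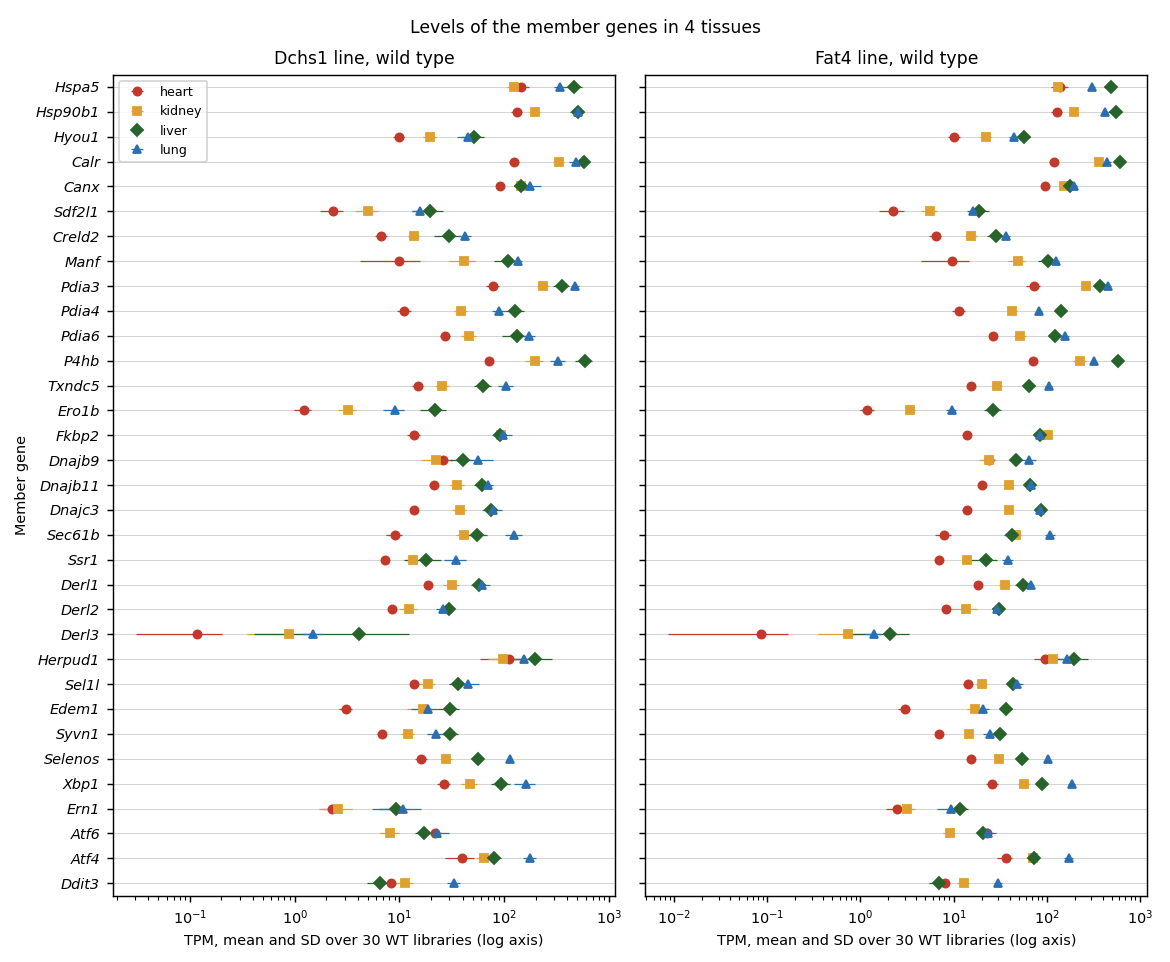
Levels of the 33 members in WT heart, kidney, liver and lung of both lines, as mean TPM with SD over 30 libraries on a log axis. Heart is lowest for most members, and Hspa5 reaches 462 TPM in Dchs1 WT liver.

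In Dchs1 Het heart most luminal chaperones and isomerases fell, while ERAD genes went both ways. Among 7 ERAD members tested 3 were higher and 2 lower, with a median log2 fold change of -0.01. Among 5 sensors and transcription factors 3 were higher and 1 lower. Of 32 members tested, 17 were lower and 8 higher, and 7 did not pass (edgeR adjusted p under 0.05). Over all genes of that comparison 24.1% were lower and 26.1% higher, so calls were common in general. The members' median log2 fold change was -0.10, against 0.00 over all genes. Within the longest stretch (24 Het and 24 WT libraries) 25 members were called, 9 higher and 16 lower, and Sdf2l1 (-0.19, edgeR adjusted p = 0.0961) and Derl2 (0.06, edgeR adjusted p = 0.0593) were not among them.

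Hspa5 had CPM values (counts scaled to library size) of 126 at lowest, 154 at the median and 208 at highest in Dchs1 Het hearts, against 158, 250 and 383 in WT hearts. All 30 Het hearts lay below the WT median, although the groups overlapped. The log2 fold change was -0.71 ± 0.0564 (edgeR, adjusted p = 1.01e-15). Manf went with it, at 6.99, 9.37 and 12.1 CPM in Het hearts against 8.56, 14.3 and 23.3 CPM in WT hearts, a log2 fold change of -0.67 ± 0.0687 (edgeR adjusted p = 3.06e-12, 30 of 30 below the WT median).

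Hyou1, a nucleotide exchange factor for BiP, stood at 20.3, 24.4 and 30.2 CPM in Dchs1 Het hearts and 24.4, 32.4 and 41.2 CPM in WT hearts, a log2 fold change of -0.37 ± 0.0377 (edgeR adjusted p = 2.99e-12). The Het median stood at the level of the lowest WT heart. Calreticulin, Calr, a lectin chaperone that also stores calcium, was at 105, 131 and 193 CPM in Het hearts and 126, 173 and 203 CPM in WT hearts (log2 fold change -0.37 ± 0.0438, edgeR adjusted p = 2.04e-10). Hsp90b1, the ER Hsp90 called GRP94, changed by -0.31 ± 0.0395 and the small chaperone partner Sdf2l1 by -0.26 ± 0.0927. Canx changed by -0.13 ± 0.0274. Creld2, an ER stress-induced disulfide isomerase, was the 1 chaperone-group member that did not pass, at 3.76, 6.34 and 8.2 CPM in Het hearts and 5.33, 6.58 and 8.42 CPM in WT hearts. In all, 7 of 8 chaperones were lower and 0 higher, Sdf2l1 among them in the whole set but not in the longest stretch.

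Disulfide isomerases followed in Dchs1 Het heart, with Pdia6 at -0.26 ± 0.0345 (edgeR adjusted p = 6.46e-09), Pdia4 at -0.38 ± 0.052, Pdia3 at -0.21 ± 0.0345, Txndc5 at -0.15 ± 0.0401 and P4hb at -0.06 ± 0.0171 on the log2 scale. Ero1b, the oxidase that recharges isomerases, was higher by 0.27 ± 0.062. Ssr1 (-0.16 ± 0.0251) and Sec61b (-0.20 ± 0.0658), which belong to the channel through which new chains enter the ER, were lower too. So were Sel1l (-0.11 ± 0.0309), the adaptor of the ERAD ligase, and Derl1 (-0.08 ± 0.0225). With limma on log2(TPM + 1) P4hb (adjusted p = 0.245) and Derl1 (adjusted p = 0.0745) did not pass.

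The largest rise in Dchs1 Het heart was that of Herpud1, which helps assemble the ERAD ligase complex. It had 97.4, 249 and 430 CPM in Het hearts against 66.8, 133 and 407 CPM in WT hearts, and 28 of 30 Het hearts lay above the WT median, with wide overlap. The log2 fold change was 0.80 ± 0.128 (edgeR adjusted p = 5.33e-07). Dnajb9, a BiP cochaperone that restrains IRE1, was higher by 0.38 ± 0.0649, Atf4 by 0.34 ± 0.0718, Ern1 by 0.33 ± 0.0794, Selenos by 0.20 ± 0.0335 and Xbp1 by 0.13 ± 0.0373. Derl2 was higher by 0.06 ± 0.0251, a call that ended with DESeq2 (adjusted p = 0.06). Selenos lies on chromosome 7, as Dchs1 does, 39.7 Mb away. Ddit3 was lower by 0.14 ± 0.0602 (edgeR adjusted p = 0.048), a call that ended with no filter on low counts (edgeR adjusted p = 0.058) and with limma on log2(TPM + 1) (adjusted p = 0.0871), and Atf6 was at 0.03 ± 0.055 (edgeR adjusted p = 0.655). Splicing of Xbp1 is not counted in a gene table and was not analysed here.

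**Figure D2:**
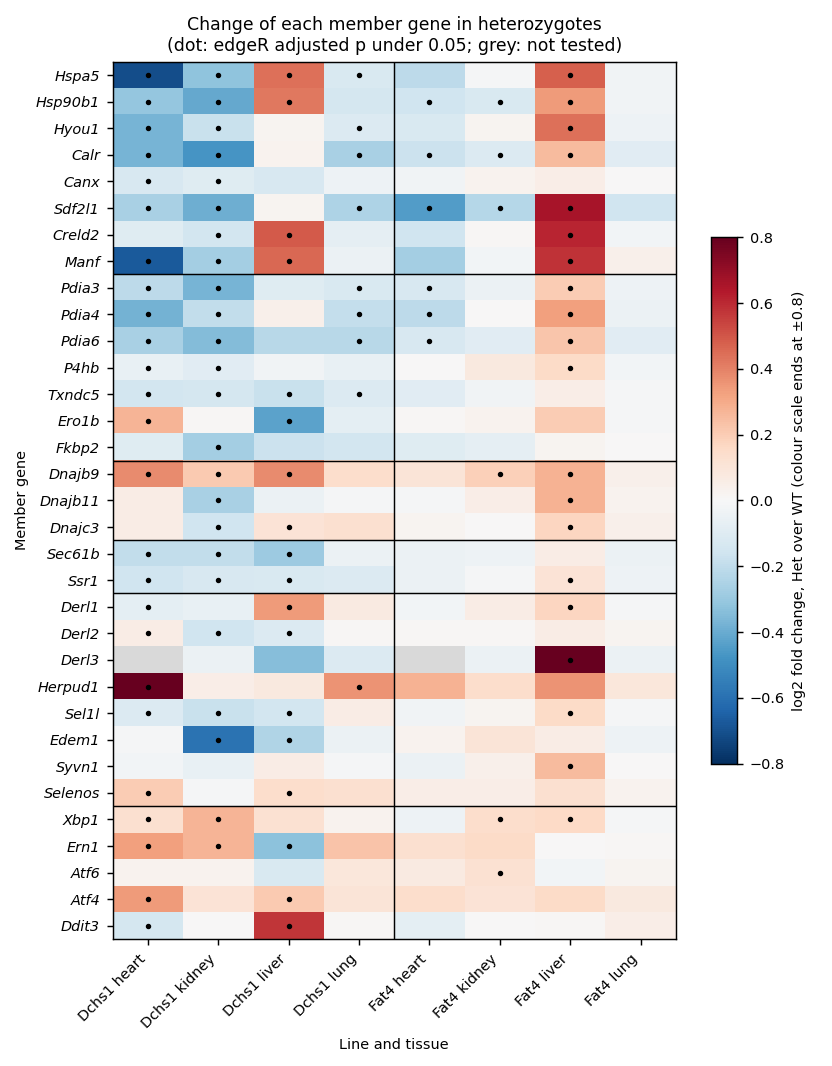
Log2 fold change Het over WT of each member (rows, by role) in the 8 comparisons (columns), with a dot where the edgeR adjusted p was under 0.05 and grey where a gene was not tested. In the chaperone rows 7 of 8 are lower in Dchs1 heart, 8 of 8 lower in Dchs1 kidney and 7 of 8 higher in Fat4 liver.

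Kidney of Dchs1 Het mice had lower levels over most of the secretory folding genes. There, 21 of 33 members were lower, 3 higher and 9 did not pass, against 23.8% lower and 23.4% higher over all genes. The members' median log2 fold change was -0.15, against 0.01 over all genes. With limma on TPM, 78.5% of all called genes were higher, against 49.5% with edgeR, and members were called in 13 cases, 9 lower and 4 higher. The longest stretch (25 Het and 23 WT libraries) gave 21 members.

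All 8 chaperones were lower in Dchs1 Het kidney by edgeR, and none rose. Calr was at 261, 319 and 413 CPM in Het kidneys against 298, 458 and 637 CPM in WT kidneys (log2 fold change -0.47 ± 0.0468, edgeR adjusted p = 6.61e-13). All 30 Het kidneys were below the WT median. Hsp90b1 was at 231, 292 and 349 CPM in Het kidneys and 288, 384 and 486 CPM in WT kidneys, a change of -0.41 ± 0.0437 (edgeR adjusted p = 1.17e-11). Hspa5 changed less than in heart, with 128, 175 and 228 CPM in Het kidneys against 173, 214 and 271 CPM in WT kidneys (-0.32 ± 0.0485, edgeR adjusted p = 1.53e-07, 29 of 30 below the WT median). The 4 smallest changes of this group, Hyou1 (-0.18), Canx (-0.10), Creld2 (-0.15) and Manf (-0.27 ± 0.0559), did not pass with limma on TPM, where their adjusted p-values ran from 0.114 to 0.851.

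The isomerase Pdia3, which works with calnexin and calreticulin, was at 207, 241 and 288 CPM in Dchs1 Het kidneys and 219, 315 and 369 CPM in WT kidneys (-0.37 ± 0.0373, edgeR adjusted p = 1.71e-12). Pdia6 changed by -0.35 ± 0.0469, the prolyl isomerase Fkbp2 by -0.27 ± 0.0452 and the cochaperone Dnajb11 by -0.26 ± 0.0387. P4hb, at -0.09 ± 0.0371 by edgeR, turned to 0.02 with limma on TPM (adjusted p = 0.848). Edem1, a mannosidase-like protein that directs glycoproteins to ERAD, had the largest fall of any member in this tissue, at 36.5, 46.3 and 63.4 CPM in Het kidneys against 40.3, 68.0 and 114 CPM in WT kidneys (-0.59 ± 0.0741, edgeR adjusted p = 1.05e-09). All 30 Het kidneys lay below the WT median.

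Against that direction, Xbp1 was at 63.4, 84.9 and 152 CPM in Dchs1 Het kidneys and 56.9, 72.0 and 105 CPM in WT kidneys, a rise of 0.27 ± 0.0629 (edgeR adjusted p = 0.000253). Ern1 was higher by 0.27 ± 0.103 and Dnajb9 by 0.21 ± 0.0815, and Dnajb9 did not pass within the longest stretch (0.17, edgeR adjusted p = 0.085). Atf6 (0.03 ± 0.0519) and Ddit3 (0.00 ± 0.0696) did not pass. Atf4, at 0.11 ± 0.0533, did not pass either, but did so with the stretch as a covariate (0.12, edgeR adjusted p = 0.0357), with surrogate variables (0.10, edgeR adjusted p = 0.0129) and with limma on log2(TPM + 1) (0.22, adjusted p = 0.00471). Beside these falls, the list of kidney tubule markers had 5 of 8 lower and 1 higher, with a summed level of 20300 to 43200 TPM (median 30400) in Het kidneys and 30000 to 58900 TPM (median 49800) in WT kidneys, and none of its markers at 0. T and NK cell markers were lower in 5 of the 5 tested, with sums of 2.21 to 5.55 TPM (median 3.63) in Het kidneys and 3.23 to 8.62 TPM (median 4.64) in WT kidneys, and B and plasma cell markers in 4 of 6 (median 5.15 TPM in Het and 6.26 TPM in WT, with Tnfrsf17 at a median of 0). Over all genes 23.8% were lower in this tissue. The part of these lists in the result was not tested. In bulk tissue, fewer cells of a type and less RNA per cell cannot be told apart.

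In liver of Dchs1 Het mice members went both ways. Here 10 of 33 were higher, 8 lower and 15 did not pass, close to the split over all genes (24.3% higher, 25.4% lower), and the members' median was 0.02 against 0.00 over all genes. The longest stretch (24 Het and 23 WT libraries) gave 19 members. Chaperones made up 4 of the rises. Hspa5 was at 505, 874 and 1800 CPM in Het livers and 450, 665 and 986 CPM in WT livers, a log2 fold change of 0.44 ± 0.0936 (edgeR adjusted p = 9.33e-05, 26 of 29 above the WT median). Hsp90b1 was at 648, 1050 and 2310 CPM in Het livers and 684, 808 and 1250 CPM in WT livers (0.42 ± 0.0824, edgeR adjusted p = 2.67e-05). The highest Het livers stood well above every WT liver, while the lowest Het and WT livers were alike. Creld2 was higher by 0.49 ± 0.123 and Manf by 0.46 ± 0.134. Calr, with a Het median of 616 CPM and a WT median of 623 CPM, Canx, Hyou1 and Sdf2l1 did not pass.

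Derl1, a channel component of ERAD, had the smallest p of the members in Dchs1 Het liver, at 94.9, 129 and 161 CPM in Het livers against 61.8, 99.7 and 132 CPM in WT livers (0.34 ± 0.0444, edgeR adjusted p = 4.22e-09). Ddit3 was at 1.80, 4.55 and 14 CPM in Het livers and 2.07, 3.37 and 5.06 CPM in WT livers (0.57 ± 0.133, edgeR adjusted p = 0.000276). Atf4, which activates Ddit3, was higher by 0.21 ± 0.058. Selenos was higher by 0.14 ± 0.0557, Dnajc3 by 0.11 ± 0.0457 and Dnajb9 by 0.38 ± 0.111, and the last of these was at 0.24 within the longest stretch (edgeR adjusted p = 0.112). Dnajc3 did not pass there either (0.08, edgeR adjusted p = 0.181), and with limma on log2(TPM + 1) neither Dnajc3 (adjusted p = 0.119) nor Selenos (adjusted p = 0.0538) passed.

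The lower side of Dchs1 Het liver held other steps of the pathway. Ero1b was at 22.5, 43.1 and 66.1 CPM in Het livers and 32.5, 58.8 and 83.9 CPM in WT livers (-0.43 ± 0.0867, edgeR adjusted p = 4.29e-05). Ern1 was at 12.3, 17.4 and 26.9 CPM in Het livers and 9.85, 22.2 and 39.2 CPM in WT livers (-0.33 ± 0.0898, edgeR adjusted p = 0.00201). Both sets overlapped widely. Edem1 (-0.24 ± 0.0646), Sec61b (-0.29 ± 0.0831), Txndc5 (-0.18 ± 0.0546), Sel1l (-0.15 ± 0.0592) and Derl2 (-0.11 ± 0.037) were lower as well. Ssr1, at -0.12 ± 0.0497 by edgeR, turned to 0.08 with limma on TPM (adjusted p = 0.652). Sel1l did not pass with limma on log2(TPM + 1) (adjusted p = 0.0547) or with surrogate variables (edgeR adjusted p = 0.0951). Xbp1 (0.12 ± 0.0574, edgeR adjusted p = 0.0838) and Atf6 (-0.12 ± 0.0503, edgeR adjusted p = 0.0512) did not pass. Atf6 did so with the stretch as a covariate (-0.13, edgeR adjusted p = 0.0117), within the longest stretch (-0.17, edgeR adjusted p = 0.00461) and with surrogate variables (-0.12, edgeR adjusted p = 0.000148), and Xbp1 with surrogate variables (0.12, edgeR adjusted p = 0.0401).

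Lung of Dchs1 Het mice showed small falls of 4 of 8 chaperones and 4 of 7 folding enzymes. In all 8 of 33 members were lower and 1 higher, against 10.4% lower and 9.6% higher over all genes. With limma on TPM 26.1% of all called genes were higher, against 47.9% with edgeR. The count of members was 25 with surrogate variables (9 higher and 16 lower), 14 with the stretch as a covariate (3 higher and 11 lower), 13 within the longest stretch (24 Het and 24 WT) and 11 without the 5 libraries that stood apart. Calr changed by -0.26 ± 0.0466 (edgeR adjusted p = 3e-05, 28 of 30 below the WT median), Pdia4 by -0.19 ± 0.0391, Sdf2l1 by -0.25 ± 0.0709, Pdia6 by -0.22 ± 0.0631 and Hspa5 by -0.12 ± 0.0342. Pdia3 (-0.12), Txndc5 (-0.11) and Hyou1 (-0.11) were lower by edgeR, and the call of Hyou1 ended without the 5 libraries (adjusted p = 0.0684). Herpud1 rose as in heart, by 0.36 ± 0.0742 (edgeR adjusted p = 0.000202). Xbp1 (0.03), Ern1 (0.23), Atf6 (0.09), Atf4 (0.10) and Ddit3 (0.01) did not pass. Ern1 passed within the longest stretch (0.21, edgeR adjusted p = 0.0444), and with surrogate variables Ern1 (0.22, edgeR adjusted p = 1.77e-06), Atf6 (0.09, edgeR adjusted p = 0.000128) and Atf4 (0.11, edgeR adjusted p = 0.0049) passed.

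Across the Dchs1 tissues, glucocorticoid response genes moved beside these members. Of 12 listed genes, 12 were higher in heart, 10 in kidney, 7 in liver and 11 in lung, and 0 were lower. Over all genes 26.1%, 23.4%, 24.3% and 9.6% were higher in these tissues. Their summed level in heart had a median of 5120 TPM (2580 to 7170) in Het libraries and 2270 TPM (1390 to 5700) in WT libraries, and in liver 4420 TPM (2520 to 11500) in Het and 2250 TPM (888 to 6910) in WT. In the Fat4 line 1, 5, 1 and 1 of the 12 were higher in heart, kidney, liver and lung, against 0.969%, 9.21%, 3.64% and 0.11% of all genes. At an unadjusted edgeR p under 0.05 the counts were 9, 6, 4 and 9, with 0 lower. Summed medians were 3090 TPM in Het and 2460 TPM in WT hearts, and 1100 and 930 TPM in kidneys. They were 2210 and 1990 TPM in livers, and 1500 and 1210 TPM in lungs. The part of these genes in the members' changes was not tested. Markers of other cell types moved too. Over all genes 10.4% were lower in Dchs1 lung, and 24.1% lower and 26.1% higher in Dchs1 heart. In Dchs1 Het lung T and NK cell markers were lower in 7 of 8 cases, with sums of 11.1 to 64.4 TPM (median 27.8) in Het and 14.8 to 68.9 TPM (median 43.3) in WT. B and plasma cell markers were lower there in 5 of 9 cases, with sums of 35.8 to 259 TPM (median 101) in Het and 33.3 to 424 TPM (median 165) in WT, and fibroblast markers in 5 of 8, with sums of 634 to 1140 TPM (median 992) in Het and 702 to 1400 TPM (median 1150) in WT. In Dchs1 Het heart fibroblast markers were lower in 5 of 8 cases and 1 was higher, though their sums had like medians (728 TPM in Het and 725 TPM in WT). Erythroid markers were lower there in 4 of 6 cases, with medians of 2670 TPM in Het and 3550 TPM in WT, cardiomyocyte markers in 3 of 8 and B and plasma cell markers in 3 of 5, while 4 of 8 endothelial markers were higher and 1 lower. No marker of these lists had a median of 0 in lung, and in heart Tnfrsf17 alone did. The part of these lists was not tested.

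Fat4 Het liver gave the most one-sided picture. There 20 of 33 members were higher and 0 lower, while 3.64% of all genes were higher and 3.51% lower. In all, 32 of 33 members had a positive log2 fold change, with a median of 0.17 against 0.00 over all genes. The summed level of the members was 3060 to 7064 TPM (median 5107) in Het livers and 3637 to 4904 TPM (median 4325) in WT livers. Within the longest stretch (30 Het and 27 WT libraries) 19 were higher, and without the 3 libraries that stood apart 21 members were called. With limma on TPM 11 were higher and 0 lower, while only 13.4% of all genes it called were higher, against 50.9% with edgeR. Hepatocyte markers were higher by edgeR in 3 of 8 cases and lower in 0. Their sums were 49100 to 102000 TPM (median 86800) in Het and 68000 to 108000 TPM (median 89000) in WT livers. In Dchs1 Het liver 4 of these 8 were higher and 4 lower, against 24.3% and 25.4% of all genes. The part of this list was not tested.

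Chaperones led in Fat4 Het liver, with 7 of 8 higher. Hspa5 was at 669, 976 and 1700 CPM in Het livers against 491, 679 and 953 CPM in WT livers. The Het median stood above the highest WT liver, and 29 of 30 Het livers lay above the WT median. The log2 fold change was 0.48 ± 0.0718 (edgeR adjusted p = 3.19e-06). Creld2 was at 22.2, 33.2 and 75.5 CPM in Het livers and 15.8, 21.7 and 35.6 CPM in WT livers (0.61 ± 0.0942, edgeR adjusted p = 5e-06), with all 30 Het livers above the WT median. Manf had 46.9, 75.7 and 135 CPM in Het livers and 33.3, 47.2 and 80.2 CPM in WT livers (0.58 ± 0.0892, edgeR adjusted p = 5.99e-06).

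Sdf2l1 was at 9.67, 18.6 and 40.3 CPM in Fat4 Het livers and 6.18, 12.5 and 19.1 CPM in WT livers (0.66 ± 0.108, edgeR adjusted p = 1.79e-05). The highest Het value was more than that of any WT liver, and 27 of 30 Het livers were above the WT median. Hyou1 was at 127, 204 and 342 CPM in Het livers and 108, 145 and 203 CPM in WT livers (0.44 ± 0.0731, edgeR adjusted p = 2.68e-05). Hsp90b1 rose by 0.34 ± 0.073 and Calr by 0.25 ± 0.0556, each with 30 of 30 Het livers above the WT median. Canx, with medians of 412 CPM in Het and 402 CPM in WT, did not pass.

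Derl3 had the largest log2 fold change of any member among the 8 comparisons of Het with WT, 1.39 ± 0.206 (edgeR adjusted p = 2.74e-06). It had 0.842, 4.37 and 9.76 CPM in Fat4 Het livers against 0.391, 1.34 and 5.65 CPM in WT livers, and 29 of 30 Het livers were above the WT median. Because Derl3 is also a plasma cell gene, the B and plasma cell list was counted without it: of 6 genes tested 0 were higher and 1, Jchain, was lower, and the summed median was 4.27 TPM in Het and 4.95 TPM in WT livers. Tnfrsf17, a plasma cell receptor, had a median of 0 TPM. The levels of this list were low, and its part in the rise of Derl3 was not tested. In hearts, where Derl3 was nearly absent, it was not tested.

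Other folding steps moved the same way in Fat4 Het liver. Pdia4 rose by 0.33 ± 0.0612, Dnajb11 by 0.28 ± 0.0515, Dnajb9 by 0.28 ± 0.0754, Syvn1, the ERAD ubiquitin ligase, by 0.25 ± 0.0572, Pdia6 by 0.22 ± 0.055 and Pdia3 by 0.20 ± 0.0482. Dnajc3, which inhibits PERK, rose by 0.17 ± 0.0339, Derl1 by 0.17 ± 0.0494, Xbp1 by 0.16 ± 0.0412, Sel1l by 0.15 ± 0.0421, P4hb by 0.15 ± 0.0303 and Ssr1 by 0.11 ± 0.0339. Of the 20 calls, 9 ended with limma on TPM, those of Pdia6, P4hb, Dnajb9, Dnajc3, Ssr1, Derl1, Sel1l, Syvn1 and Xbp1. Xbp1 was the 1 of 5 sensors and transcription factors that passed, and Ern1 was at 0.00 ± 0.0705, Atf6 at -0.02 ± 0.0345 and Ddit3 at 0.01 ± 0.0884. Atf4, at 0.15 ± 0.0533 (edgeR adjusted p = 0.0629), passed with DESeq2 (0.15, adjusted p = 0.0493), without the 3 libraries that stood apart (0.17, edgeR adjusted p = 0.0225) and with surrogate variables (0.10, edgeR adjusted p = 0.0179). Ssr1 did not pass with no filter, with the stretch as a covariate, within the longest stretch or without the 3 libraries (edgeR adjusted p from 0.0565 to 0.0708).

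Genes around the members were counted in Fat4 Het liver, where 3.64% of all genes were higher and 3.51% lower. Among 26 genes of translocation, glycosylation and signal peptidase 10 were higher and 0 lower, led by the signal recognition particle receptor genes Srpr (0.15 ± 0.0271) and Srprb (0.18 ± 0.0414) and the glycosylation subunit Rpn1 (0.15 ± 0.0341). Of 19 ER to Golgi transport genes tested 6 were higher and 0 lower, with Sec23b at 0.18 ± 0.0414. Other ER folding and redox genes had 2 of 31 higher, Txndc11 (0.31 ± 0.051) and Fkbp11 (0.30 ± 0.0772), and 2 lower. Other ERAD genes had 2 of 23 higher. The PERK and ATF4 arm had 1 of 21 higher and 2 lower, and cytosolic and mitochondrial heat shock genes 1 of 21 higher (all by edgeR adjusted p under 0.05). Apart from the translocation and transport lists, these counts rest on few genes and lay near or little above the shares over all genes.

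Fat4 Het heart went the other way, by small amounts. Of 32 members tested 6 were lower and 0 higher, against 0.628% of all genes lower and 0.969% higher, with a median of -0.04 against 0.00 over all genes. Calr was at 117, 141 and 164 CPM in Het hearts and 129, 161 and 188 CPM in WT hearts (-0.17 ± 0.0338, edgeR adjusted p = 0.00458, 28 of 30 below the WT median). Sdf2l1 was at 0.615, 1.27 and 1.96 CPM in Het hearts and 1.01, 1.66 and 2.87 CPM in WT hearts (-0.45 ± 0.0987, edgeR adjusted p = 0.0136). Both pairs of groups overlapped over most of their range. Pdia4 changed by -0.21 ± 0.045, Hsp90b1 by -0.16 ± 0.0377, Pdia6 by -0.13 ± 0.0286 and Pdia3 by -0.13 ± 0.0303. The last 3 did not pass with limma on TPM (adjusted p from 0.09 to 0.26), which called 3 members and had 87.1% of all its calls higher, against 60.7% with edgeR.

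Hspa5 in Fat4 heart was at 132, 211 and 262 CPM in Het and 167, 238 and 338 CPM in WT (-0.21 ± 0.063, edgeR adjusted p = 0.0719), and DESeq2 called it (-0.20, adjusted p = 0.0416). Manf was at -0.27 with an edgeR adjusted p of 0.0564. Xbp1 (-0.04), Ern1 (0.13), Atf6 (0.07), Atf4 (0.14) and Ddit3 (-0.08) did not pass, and Xbp1 did with surrogate variables (-0.10, edgeR adjusted p = 0.0496). The longest stretch (23 Het and 25 WT libraries) and the fit without the library that stood apart each called 6 members.

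In Fat4 Het kidney 3 of 33 members were higher and 3 lower, against 9.21% of all genes higher and 7.87% lower, a share near the background. Xbp1 rose by 0.14 ± 0.0457, Atf6 by 0.12 ± 0.0378 and Dnajb9 by 0.19 ± 0.0647. Hsp90b1 changed by -0.12 ± 0.0354, Calr by -0.11 ± 0.0352 and Sdf2l1 by -0.23 ± 0.0748 (edgeR adjusted p = 0.012, 0.0236 and 0.0283). With the stretch as a covariate 3 members were called (1 higher and 2 lower), and Dnajb9, Atf6 and Sdf2l1 did not pass, with adjusted p-values of 0.0706, 0.0525 and 0.0527. The longest stretch gave 3 higher and 3 lower. With surrogate variables 0 members were higher and 6 lower, and Xbp1 was at 0.04 (edgeR adjusted p = 0.501), Dnajb9 at 0.09 (edgeR adjusted p = 0.0505) and Atf6 at 0.07 (edgeR adjusted p = 0.0547). With limma on TPM 3 members were higher and 0 lower, and 68.1% of all called genes were higher, against 53.9% with edgeR. Hspa5 (-0.01), Ern1 (0.15), Atf4 (0.11) and Ddit3 (0.00) did not pass, and Atf4 did with limma on log2(TPM + 1) (0.16, adjusted p = 0.0395). Endothelial markers were lower in 6 of 8 cases in this tissue, with sums of 198 to 282 TPM (median 230) in Het and 213 to 326 TPM (median 251) in WT and no marker at 0, and their part in the result was not tested. Fat4 Het lung had 0 of 33 members called by edgeR and 0 by DESeq2, with 2 lower at an unadjusted p under 0.05, where 0.11% of all genes were higher and 0.0259% lower. Hspa5 was at -0.03, Xbp1 at -0.01, Ern1 at 0.01, Atf6 at 0.02, Atf4 at 0.08 and Ddit3 at 0.05 on the log2 scale.

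**Figure D3:**
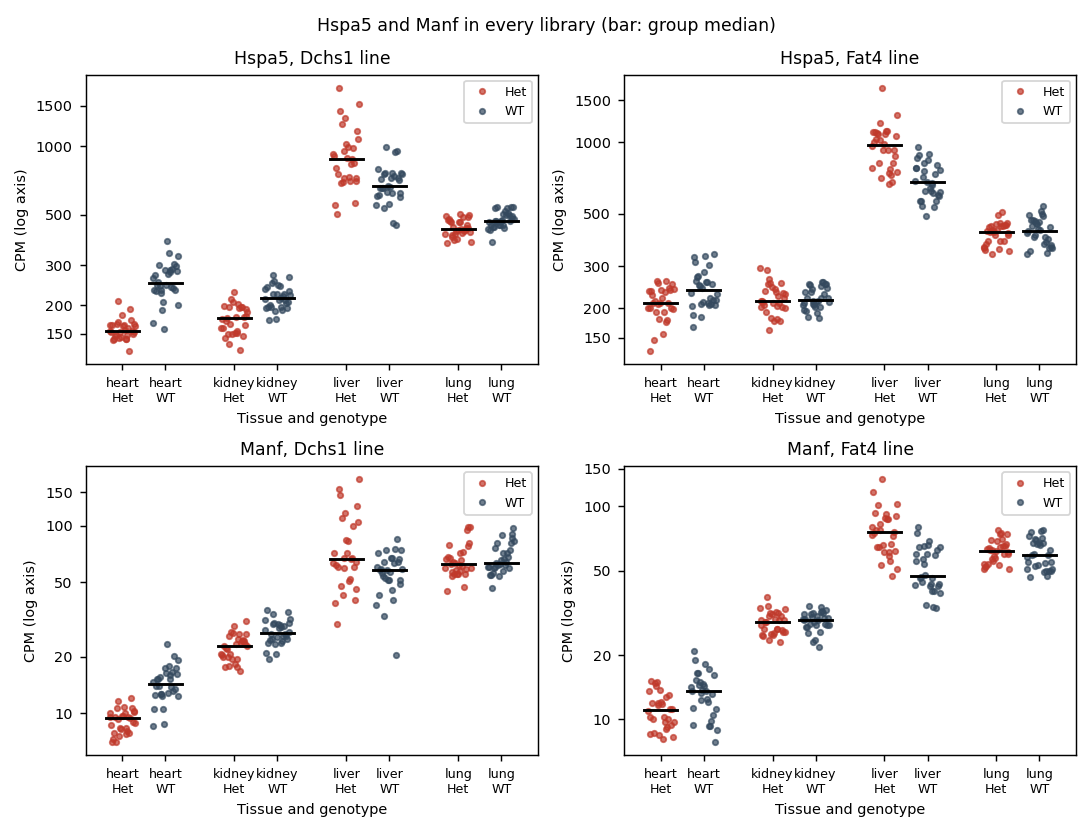
Hspa5 and Manf in every library (CPM, log axis), Het left of WT in each tissue, with a bar at each group's median. In hearts of the Dchs1 line the Hspa5 medians are 154 CPM in Het and 250 CPM in WT, and in livers of the Fat4 line 976 CPM in Het and 679 CPM in WT.

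Heart and liver were then compared by sign. In the Dchs1 line 5 of 32 members tested in both tissues were lower in heart and higher in liver, Hspa5, Hsp90b1, Manf, Derl1 and Ddit3, against 525 of 11592 genes overall (4.53%). Ero1b, Derl2 and Ern1 were higher in heart and lower in liver, against 5.2% of all genes, 4 members were lower in both tissues and 3 higher in both, against 7.41% and 9.05% of all genes. The heart calls of Derl1 and Ddit3 are those that ended under other settings, as given above. In the Fat4 line 6 of 32 members were lower in heart and higher in liver, Hsp90b1, Calr, Sdf2l1, Pdia3, Pdia4 and Pdia6. Across all 11522 genes tested in both tissues there were 6 such genes (0.0521%), all of them members. The list was chosen with earlier results of these data known, so this match is a description and not independent support. In the opposite direction stood 0 members and 0.00868% of all genes. By sign alone, 11 members of the Dchs1 line and 21 of the Fat4 line were negative in heart and positive in liver, against 20.6% and 21.6% of all genes.

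A test of the difference itself, heart effect minus liver effect, called 9 of 33 members lower and 5 higher for Dchs1, against 18.3% and 20.1% of all genes. Among called members Hspa5 had the largest difference, -1.15 ± 0.111 on the log2 scale (edgeR adjusted p = 1e-15), followed by Manf at -1.13 ± 0.157, Hsp90b1 at -0.73 ± 0.0924 and Ddit3 at -0.71 ± 0.147. Herpud1 (0.72 ± 0.21), Ero1b (0.69 ± 0.112) and Ern1 (0.65 ± 0.119) had positive differences. In the Fat4 line 17 of 33 members were lower and 0 higher, against 1.27% and 0.661% of all genes. Sdf2l1 was at -1.11 ± 0.161, Manf at -0.85 ± 0.122, Creld2 at -0.78 ± 0.115 and Hspa5 at -0.69 ± 0.0969 (edgeR adjusted p = 2.01e-07 for Hspa5). With limma on TPM 12 members had lower differences and 0 higher, although 85.3% of all genes it called were higher, against 34.2% with edgeR. The longest stretches gave 15 members for Dchs1 and 14 for Fat4.

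**Figure D4:**
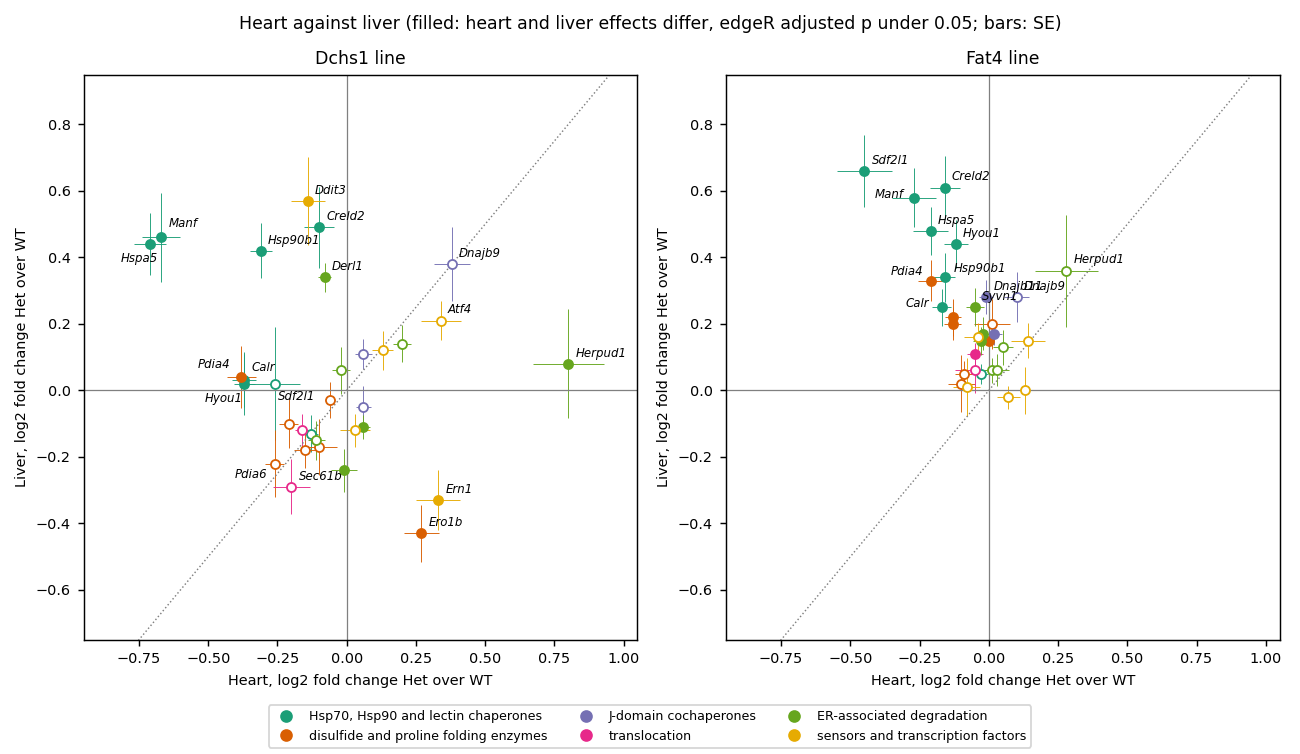
Log2 fold change Het over WT in heart (x axis) and liver (y axis) for each member tested in both, with SE bars, filled where the 2 effects differed (edgeR adjusted p under 0.05), by line. The upper left of the panels holds 11 members of the Dchs1 line and 21 of the Fat4 line, and Herpud1 stands to the right in the Dchs1 line at 0.80 in heart.

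The lines were set against each other within heart and liver. In heart the Dchs1 effect minus the Fat4 effect was lower for 9 of 32 members and higher for 5, against 12.6% and 12.9% of all genes. It was -0.51 ± 0.0857 for Hspa5 (edgeR adjusted p = 2.21e-06), -0.41 ± 0.106 for Manf, 0.51 ± 0.175 for Herpud1 and 0.28 ± 0.0805 for Dnajb9. The longest stretches gave 10 members, and limma on TPM gave 6. In liver it was lower for 15 of 33 members and higher for 2, against 11.4% and 12.2% of all genes. Derl3 was at -1.71 ± 0.45, Sdf2l1 at -0.62 ± 0.204, Ero1b at -0.61 ± 0.116 and Pdia6 at -0.42 ± 0.117, while Ddit3 (0.58 ± 0.161) and Derl1 (0.19 ± 0.0672) were the 2 higher ones. Derl3 itself did not pass in Dchs1 Het liver. Its WT livers averaged 4.12 ± 8.1 TPM in the Dchs1 line, a wide scatter, and 2.06 ± 1.29 TPM in the Fat4 line. Limma on TPM gave 1 higher and 7 lower, with 67.1% of all its calls higher, against 51.8% with edgeR. The longest stretches gave 2 higher and 15 lower. The labels do not say whether the 2 lines were handled together, so the allele and such a difference cannot be told apart.

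The PERK and ATF4 arm, a list of 24 other genes, was counted in the same way. In Dchs1 Het heart 11 of 21 tested genes were higher and 2 lower (26.1% and 24.1% of all genes), with the phosphatase subunit Ppp1r15a at 0.64 ± 0.0845 and the proline synthesis gene Aldh18a1 at -0.42 ± 0.0574. In Dchs1 Het liver 10 of 22 were higher and 2 lower (24.3% and 25.4% of all genes), with the amino acid transporter subunit Slc3a2 at 0.36 ± 0.0421. In Dchs1 Het kidney 9 of 22 were higher and 4 lower (23.4% and 23.8% of all genes), and in Dchs1 Het lung 4 of 23 went each way (9.6% and 10.4% of all genes). In Fat4 Het kidney 10 of 22 were higher and 0 lower (9.21% and 7.87% of all genes), among them the serine and asparagine synthesis genes Psat1 (0.47 ± 0.0991) and Asns (0.43 ± 0.113), while Atf4 itself passed there only with limma on TPM. In Fat4 Het heart and lung 0 were called by edgeR.

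Promoter letters were set beside these changes. Of the 10 members with an ERSE, 8 were higher in Fat4 Het liver, with a median log2 fold change of 0.25, against 9 of the 19 without it at a median of 0.15. In Dchs1 Het kidney 7 of 10 with an ERSE were lower and 0 higher (median -0.16), against 12 of 19 lower and 3 higher without it (median -0.14). In Dchs1 Het liver 4 of 10 with an ERSE were higher and 1, Ero1b, lower (median 0.04), against 4 of 19 higher and 7 lower without it (median -0.05). In Dchs1 Het heart 5 of the 9 tested were lower and 1, Ero1b again, higher (median -0.13), against 9 of 19 lower and 7 higher without it (median -0.06). Hspa5 and Hsp90b1, whose sequences stand above with the same element, were lower. Herpud1, with ERSE-II and the ATF4-type element, was higher in Dchs1 Het heart and lung and was called in no other comparison of Het with WT. Dnajb11, the other member with ERSE-II, was lower in Dchs1 Het kidney, higher in Fat4 Het liver and not called in the rest. Promoters of Hyou1, Manf, Derl1 and Atf6 were not analysed here.

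Within WT libraries alone, where genotype plays no part, most chaperones followed Hspa5 from library to library. Each member was correlated with Hspa5 in each of the 8 WT groups of 30 libraries on log2 CPM, giving 254 pairs, and 105 were positive and 12 negative at a Benjamini-Hochberg adjusted permutation p under 0.05 (Spearman). The median Spearman rho of the members ran from 0.23 in Dchs1 liver to 0.55 in Fat4 lung, while the median over all genes was between -0.01 and 0.01. The share of all genes passing this threshold was not computed, so the counts of pairs, and those by member below, have no background beside them. The spread over all genes differed between groups, so the same rho does not mean the same in each. In Fat4 WT lung 79.8% of all genes had a lower rho than Dnajb11 at 0.50, a called pair. In Dchs1 WT lung 86% had a lower rho than Pdia3 at 0.47, also called. In Dchs1 WT liver 88.4% of all genes had a lower rho than Pdia3 at 0.23. Points of a group share depth and handling. The longest stretches alone gave 113 called pairs and TPM gave 126.

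Manf and Pdia4 were positive in all 8 groups, with rho from 0.53 to 0.92 and from 0.44 to 0.94. Pdia6, Pdia3 and Hsp90b1 were positive in 7 groups each, and Calr, Hyou1 and Sdf2l1 in 6. In Dchs1 WT heart Hsp90b1 had r = 0.90 and rho = 0.89 (permutation p = 1e-05, the smallest these permutations can give, adjusted p = 5.52e-05), and r = 0.87 without the 2 libraries farthest from the Hspa5 median. In Fat4 WT lung Pdia4 had r = 0.94 and rho = 0.94, and r = 0.93 without those 2 libraries. Herpud1 went against Hspa5 in Dchs1 WT heart, with r = -0.58, rho = -0.52 (permutation test, adjusted p = 0.0115) and r = -0.50 without 2 libraries, and 2.55% of all genes had a lower rho. In Fat4 WT lung Ern1 and Atf6 each had r = -0.65 and rho = -0.68 (permutation test, adjusted p = 0.000375), and r = -0.68 and -0.67 without 2 libraries, and 8.69% and 8.99% of all genes had a lower rho than these. On TPM 3 of the 254 pairs were negative at that threshold.

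**Figure D5:**
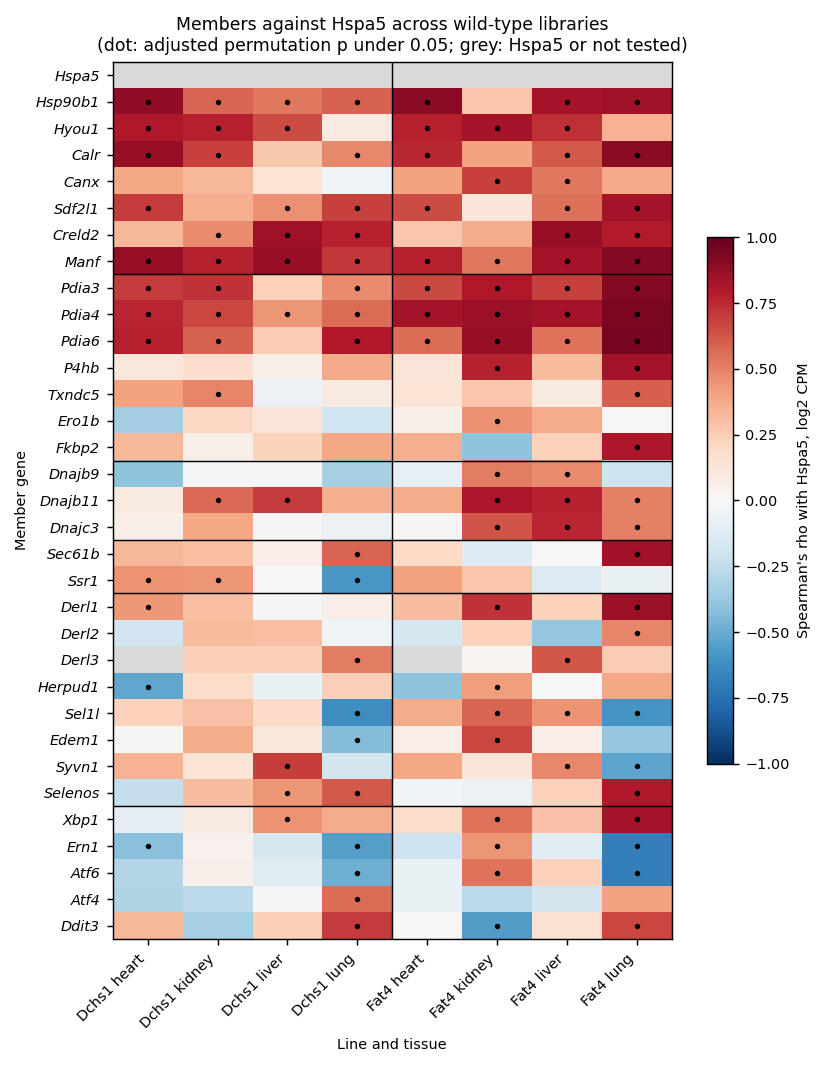
Spearman rho of each member with Hspa5 across the 30 WT libraries of each line and tissue, with a dot where the adjusted permutation p was under 0.05. Manf and Pdia4 have a dot in all 8 columns, with rho of at least 0.44, and the negative dots include Herpud1 in Dchs1 heart at -0.52 and Ern1 and Atf6 in Fat4 lung at -0.68.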

How the data were processed

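Polyadenylated RNA of 479 tissue libraries was sequenced strand-specifically with single-end reads, whose length the labels give in conflicting ways. Per the submitters' processing notes, bcl2fastq 2.17, FastQC and GRCm38 were used, and no source used here names an aligner or counter. Estimated counts per gene were deposited by the authors: 15.36% (Dchs1) and 15.53% (Fat4) of values were not whole. TPM of these libraries were deposited too, and keep no depth. Reads divided between similar genes make such counts uncertain for close paralogs.

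Counts were rounded and fitted per comparison with edgeR 4.0.16 in R 4.3.3 (TMM scaling, filterByExpr with minimum count 10 and minimum total 15, quasi-likelihood F test), with Benjamini-Hochberg adjustment over all genes tested and a threshold of 0.05. Values after ± are SD for levels and standard errors for log2 fold changes. These errors were derived from the edgeR test, as the absolute log2 fold change over the square root of its F statistic. Interactions used the same test over 2 tissues or 2 lines. The steps were tested on simulated data. The members and gene lists were chosen with earlier results of these data known. Every called member may be named, Hspa5, Xbp1, Ern1, Atf6, Atf4 and Ddit3 in each comparison, and up to 3 genes of smallest p per other list. Jchain and Tnfrsf17 were named after their values were seen. Alternatives were DESeq2 1.42.0, its size factors, limma 3.58.1 on log2(TPM + 1) or (TPM + 0.1) with at least 1 TPM in 20 libraries, no count filter, the number stretch (gaps over 2) as covariate or its longest stretch alone, fits without libraries over 5 median absolute deviations below the others' correlation, and up to 5 surrogate variables (sva 3.50.0). Correlations with Hspa5 used 100000 permutations. Of the 24475 genes 100 had no symbol. No deposited column was left unused.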

Additional observations from a re-analysis of the deposited data

Results flagged for a closer look

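The members below stood out because the heterozygote effect differed between heart and liver of a line, or between the 2 lines in a tissue, by edgeR's test of the difference itself (adjusted p under 0.05). All values are differences of log2 fold changes, and their adjusted p-values over all genes ran from 1e-15 to 0.0421. The comparisons of the lines reuse the same heart and liver libraries as the comparisons of the tissues.

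For heart minus liver in the Dchs1 line, differences were negative for the chaperones Hspa5 (-1.15), Manf (-1.13), Hsp90b1 (-0.73), Creld2 (-0.59), Calr (-0.40) and Hyou1 (-0.39). The same held for Ddit3 (-0.71), Derl1 (-0.42) and Pdia4 (-0.42). They were positive for Herpud1 (0.72), Ero1b (0.69), Ern1 (0.65), Edem1 (0.23) and Derl2 (0.17). The call of Edem1 ended with no filter on low counts (edgeR adjusted p = 0.0522).

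In the Fat4 line every called difference of heart minus liver was negative. Among chaperones these were Sdf2l1 (-1.11), Manf (-0.85), Creld2 (-0.78), Hspa5 (-0.69), Hyou1 (-0.56), Hsp90b1 (-0.50) and Calr (-0.43). Folding enzymes and cochaperones were Pdia4 (-0.55), Pdia6 (-0.35), Pdia3 (-0.33), P4hb (-0.16), Dnajb11 (-0.30) and Dnajc3 (-0.16). Syvn1 (-0.31), Sel1l (-0.19), Derl1 (-0.19) and Ssr1 (-0.16) completed the set, and within the longest stretches the last 3 did not pass (edgeR adjusted p from 0.061 to 0.12).

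For the Dchs1 effect minus the Fat4 effect in heart, differences were negative for Hspa5 (-0.51), Manf (-0.41), Hyou1 (-0.26), Calr (-0.21), Hsp90b1 (-0.16), Pdia6 (-0.14), Ssr1 (-0.12), Canx (-0.11) and P4hb (-0.06). They were positive for Herpud1 (0.51), Dnajb9 (0.28), Ero1b (0.25), Xbp1 (0.16) and Selenos (0.14). Within the longest stretches Hsp90b1, Pdia6, P4hb and Xbp1 did not pass (edgeR adjusted p from 0.0522 to 0.128).

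In liver the Dchs1 effect minus the Fat4 effect was negative for Derl3 (-1.71), Sdf2l1 (-0.62), Ero1b (-0.61), Pdia6 (-0.42), Hyou1 (-0.40), Sec61b (-0.34), Dnajb11 (-0.32) and Ern1 (-0.31). Smaller negative differences were those of Sel1l (-0.29), Pdia3 (-0.28), Edem1 (-0.28), Txndc5 (-0.22), Ssr1 (-0.21), P4hb (-0.17) and Derl2 (-0.15). It was positive for Ddit3 (0.58) and Derl1 (0.19). Within the longest stretches P4hb and Sec61b did not pass (edgeR adjusted p = 0.0626 and 0.0754), and P4hb did not pass with the stretch as a covariate (0.0653), with no filter (0.0524) or without the libraries that stood apart (0.0511). Derl1 did not pass with no filter (0.0532).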

How the results depend on the processing

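Single members were recomputed where edgeR called them, and Hspa5, Xbp1, Ern1, Atf6, Atf4 and Ddit3 in every comparison of Het with WT. Calls gained by any other member are therefore not counted here, and appear only in the numbers of members called. Of 1629 recomputed log2 fold changes of single members, 1434 gave the same call, 172 kept direction but lost the call, 19 gained it and 4 turned round. The 4 are P4hb in Dchs1 kidney (0.02) and Ssr1 in Dchs1 liver (0.08), each with limma on log2(TPM + 1) and on log2(TPM + 0.1). With either pseudocount the number of members called was 13 in Dchs1 kidney (edgeR 24), 3 in Fat4 heart and 3 in Fat4 kidney (6 each), 11 in Fat4 liver (20), 6 for the line difference in heart (14) and 8 for that in liver (17). The stretch covariate gave 14 members in Dchs1 lung (9) and 3 in Fat4 kidney (6), and surrogate variables gave 25 in Dchs1 lung, 9 higher and 16 lower. In Fat4 kidney they gave 6 as edgeR did, but 0 higher and 6 lower (edgeR 3 each way). The causes were not tested. Other counts, including those by DESeq2 and with its size factors, were within 1.5 times the main count. Over all genes, calls moved further: Fat4 heart had 211 by edgeR, 95 with no filter, 102 without the outlying library, 117 in the longest stretch, 132 by limma on TPM, 328 by DESeq2 and 351 with the stretch covariate. Dchs1 lung had 3018 by edgeR and 7539 with surrogate variables, Fat4 liver 892 and up to 1687, and Fat4 kidney 2393 and as low as 1031. Sdf2l1, Sec61b and Creld2 in heart lie at a few CPM, so their precision is limited by depth, and Derl3 was too low there to be tested. No paired analysis was possible because the labels give no replicate numbers shared between groups.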

Other observations

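Gene groups around the members were counted in the Dchs1 line too, by edgeR adjusted p under 0.05. Over all genes 26.1% were higher and 24.1% lower in Dchs1 heart, 23.4% and 23.8% in kidney and 24.3% and 25.4% in liver, and a list near these shares shows nothing of its own. In Dchs1 Het heart 13 of 23 other ERAD genes were higher and 5 lower, with the segregase cofactor Nploc4 at 0.30 ± 0.0387 and the lectin Os9 at 0.27 ± 0.0388 on the log2 scale, while 10 of 20 ER to Golgi transport genes were lower and 6 higher, with the coat subunit Sec23b at -0.38 ± 0.0412. Other ER folding and redox genes had 12 of 31 lower, with the glucosidase Mogs at -0.43 ± 0.0609, and 7 higher, with the sulfhydryl oxidase Qsox1 at 0.50 ± 0.0751. Of 26 translocation, glycosylation and signal peptidase genes 8 were lower and 6 higher, near the shares over all genes.

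In Dchs1 Het kidney 9 of 20 ER to Golgi transport genes were lower and 0 higher, among them the cargo receptor partner Mcfd2 (-0.26 ± 0.0411) and the retrieval receptor Kdelr2 (-0.22 ± 0.0344). Translocation, glycosylation and signal peptidase genes had 10 of 26 lower and 3 higher, and other ERAD genes 8 of 23 lower and 3 higher, with the ATPase Vcp at -0.22 ± 0.031. Cytosolic and mitochondrial heat shock genes had 8 of 22 higher and 4 lower there, with Hspa8 at 0.35 ± 0.0511. In Dchs1 Het liver 8 of 21 of these were higher and 3 lower, with the mitochondrial chaperones Hspd1 at 0.39 ± 0.0443 and Hspa9 at 0.30 ± 0.0396. The list of other sensors and ER stress signalling genes had 3 to 4 genes in each direction out of 16 or 17 in Dchs1 heart, kidney and liver, near the shares over all genes, and the transcription factor gene Creb3l3 was at 1.69 ± 0.222 in Dchs1 Het kidney (edgeR adjusted p = 4.12e-09).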
